A study of Mus musculus with 12 samples.

Results

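The GFP- sort of mice dosed with transduced blood stem cells holds the brain macrophages that do not carry the vector, which are mostly the microglia the mouse was born with, and it was compared between 2 routes of dosing. It made up 4 of the 12 libraries of the series, chosen by their labels: 2 from mice dosed intravenously (i.v.) and 2 from mice dosed into the lateral ventricle of the brain (intracerebroventricularly, i.c.v.), 1 female and 1 male recipient for each route (named below as the i.v. or i.c.v. female or male). Whole single-cell transcriptomes were measured in CD45+ CD11b+ CX3CR1+ cells of dissociated whole brain, sorted by GFP, 12 to 13 months after dosing per the series' design text, while the labels give an age of 22 to 28 weeks. The recipients of both routes were wild-type C57BL/6J mice conditioned with busulfan, which ablates marrow, and the dose was lineage-negative stem and progenitor cells carrying a lentiviral GFP vector (LVV.GFP), from male donors for this experiment. All recipients, whatever the route, later received bone marrow cells without the vector i.v., so that the GFP- sort can also hold donor-derived cells that lack GFP. The GFP+ libraries of the same 4 mice hold the microglia-like cells (MLCs) grown from the dose. They were set against the GFP- libraries in 1 comparison only. They also entered the main edgeR fit, where they shared in the gene filter, the scaling and the estimate of the spread behind the GFP- route test. A naive microglia library of the series gave reference shares of cells only. It came from an untreated mouse with a labelled age of 8 to 12 weeks and no sex given.

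Microglia arise from the embryonic yolk sac and renew themselves within the brain, whereas CNS-associated macrophages (CAMs) of the meninges, perivascular spaces and choroid plexus are partly replaced from the marrow. Microglia express P2ry12, an ADP receptor, and Tmem119, a surface protein of resting microglia, and CAMs express Mrc1, the mannose receptor, and Ms4a7. Conditioning with busulfan lets cells from the blood engraft the brain, and these take on many but not all features of microglia and keep high levels of Apoe, a lipid carrier, and Ms4a7.

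After filtering, the GFP- libraries of the i.v. female and male held 2675 and 4555 cells, and those of the i.c.v. female and male held 4355 and 4087 cells. Their totals lay between 4970758 and 8105756 unique molecular identifiers (UMIs), with medians of 842 to 1034 UMIs per cell. Between 99.2% and 99.7% of the cells held at least 3 of 15 microglia markers, so that the defining markers of the labelled cell type were present. No library pair shared more than 8 cell barcodes. Each library came from a different mouse, and the mice of a route also differed in sex.

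No gene passed the main test, in edgeR, between the routes. Of 12540 genes tested in GFP- cells, 0 (0%) were called at an adjusted p under 0.05 by edgeR's quasi-likelihood test, and the smallest adjusted p was 0.214. At an unadjusted p under 0.05, 1032 genes (8.23%) differed, 726 of them (5.79% of all genes) higher and 306 (2.44%) lower after i.c.v. dosing. DESeq2 called 66 genes (0.511% of those with an adjusted p), 65 of them higher after i.c.v. dosing, and edgeR called 36 with GFP- cells of the i.c.v. male left out. The direction of that imbalance depended on the scaling: with library totals alone and no scaling factor, which moved the median of all genes to -0.11 on the log2 scale, 437 genes were higher and 847 lower. The median standard error of a gene's log2 fold change was 0.21, and with 2 libraries against 2 an exact permutation test cannot go below p = 0.333.

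Apoe was among the most abundant transcripts and lay apart by route in every library. It reached 10956 and 13727 CPM (UMIs scaled to a common library total) in the i.v. female and male, and 36958 and 23516 CPM in the i.c.v. female and male. Both i.c.v. libraries were above both i.v. libraries, with a fitted log2 difference of 1.29 (standard error 0.22, adjusted p = 0.275), so that it did not pass. After each cell was thinned to 500 UMIs, Apoe was found in 63.1% and 79.2% of cells of the i.v.-dosed mice and in 96.3% and 85.5% of cells of the i.c.v.-dosed mice.

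The next genes by p on the i.c.v. side did not pass in edgeR either. DESeq2 called 10 of the 15 genes named on that side, Apoe, Fgl2, Gpr65, Cd14, Bst2 and Cp among them. It called 0 of the 15 named on the i.v. side and 0.511% of all genes with an adjusted p. The named genes were chosen by the smallest p on these same counts, so that calls of them by another tool add no support. Fgl2, a fibrinogen-like immune regulator, was at 24.2 and 26.1 CPM after i.v. dosing and at 63.8 and 46.2 CPM after i.c.v. dosing (log2 fold change 1.13, standard error 0.18, adjusted p = 0.270). Gpr65, a proton-sensing receptor, was at 45.8 and 62.1 CPM against 188 and 106 CPM. Cd14, the co-receptor for bacterial lipopolysaccharide, was at 394 and 498 CPM against 1064 and 772 CPM. In each of these genes the i.c.v. female was the highest library and the i.v. female the lowest.

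Bst2, the interferon-induced antiviral protein tetherin, was at 250.1 and 302 CPM after i.v. dosing and at 692 and 413 CPM after i.c.v. dosing. Cp, the copper-carrying ferroxidase ceruloplasmin, was at 32.4 and 42.6 CPM against 96.6 and 59.4 CPM. Gatm, an enzyme of creatine synthesis, was at 104 and 121 CPM against 187 and 165 CPM. For the 15 genes named on this side, which also hold Oser1, Sap30, Galnt3, Pmaip1, Msrb1 and Cyp4f18, the rule required that the routes not overlap, so that their separation is a description and adds no support.

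Mbp and Cnp, which encode proteins of myelin, were among these 15 genes and moved with oligodendrocyte markers. Mbp was at 27.6 and 18.5 CPM after i.v. dosing and at 44.2 and 43.7 CPM after i.c.v. dosing, a log2 fold change of 0.94. Among cells that passed for microglia alone, the log2 fold change of Mbp was -0.15. Mbp is itself 1 of the 8 oligodendrocyte markers by which cells were left out of that set, so that the rule alone could lower this value. Summed over 8 oligodendrocyte markers, the level was 79.1 and 79.6 CPM against 299 and 338 CPM, and 0.0748% and 0.110% against 0.230% and 0.147% of cells held at least 3 of them. EdgeR called 0 of these 8 and DESeq2 called 3 (Cldn11, Mal and Mobp).

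The genes that lay higher after i.v. dosing did not pass the test either. Gm42047, a long noncoding RNA of chromosome 8, was at 28.9 and 33.5 CPM after i.v. dosing and at 13.5 and 14.4 CPM after i.c.v. dosing (log2 fold change -1.16, standard error 0.21, adjusted p = 0.275). Slco4a1, an organic anion transporter, was at 18.9 and 22.5 CPM against 10.3 and 12.3 CPM. Numb, an inhibitor of Notch signalling, was at 181 and 147 CPM against 107 and 122 CPM. The 15 genes of this side, which also hold Arhgap4, Slc36a1, A830008E24Rik, Sema4g, Prkca, Ildr2, Zfp729a, Ptpro, Qtrt1, Zfp260, Sipa1l1 and Zfp992, had log2 fold changes from -1.16 to -0.47. Over all genes with at least 20 CPM, 94 were more than 2-fold higher and 8 more than 2-fold lower after i.c.v. dosing.

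**Figure D1:**
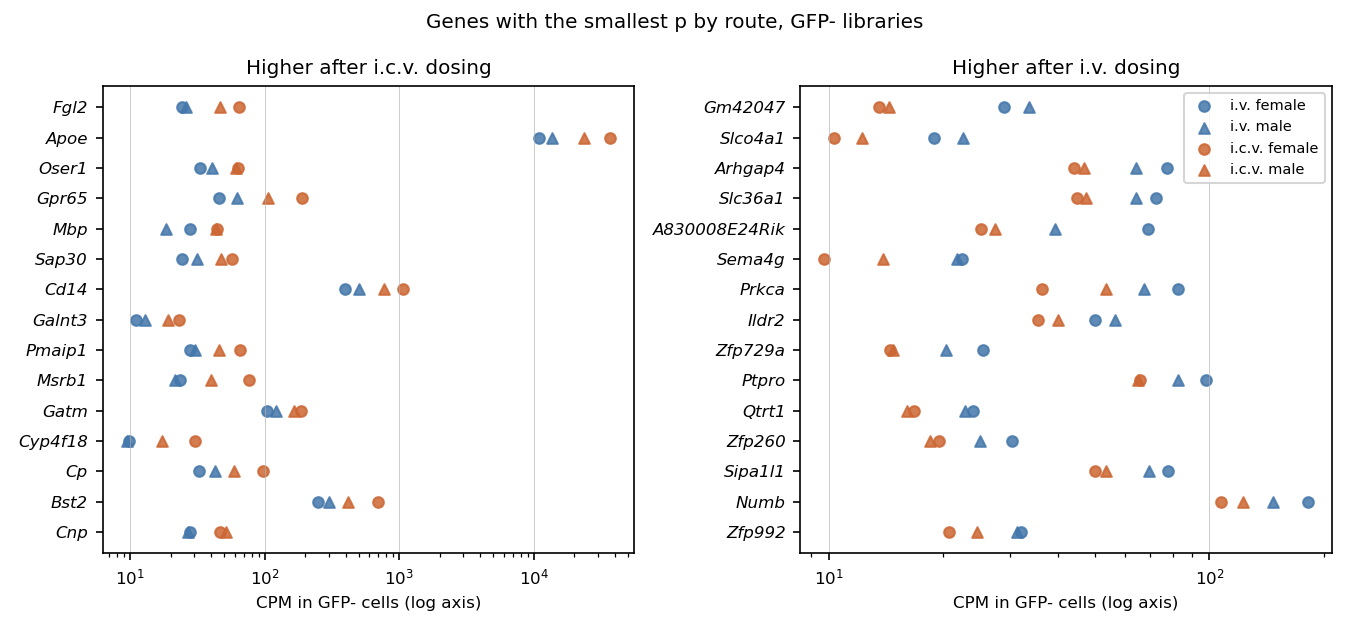
CPM on a log axis for the 15 genes with the smallest p on each side that met the level and overlap criteria, with 1 point for each GFP- library. The i.c.v. libraries (orange) lie to the right of the i.v. libraries (blue) in the left panel and to their left in the right panel, as the choice of genes required, and no gene passed in edgeR.

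Microglia markers had a median slightly below 0 after i.c.v. dosing, and most overlapped between the routes. Of 15 microglia markers, 0 passed the test, 6 lay lower in both i.c.v. libraries than in both i.v. libraries (21.3% of all genes did) and 0 lay higher (21.5% of all genes did). Their median log2 fold change was -0.25, beside -0.0033 for all genes. Among cells that passed for microglia alone, 0 of the 15 lay lower without overlap (16.96% of all genes did) and the median was -0.12. P2ry12 was at 1216 and 1485 CPM after i.v. dosing and at 835 and 1431 CPM after i.c.v. dosing, and Tmem119 was at 798 and 1003 CPM against 592 and 897 CPM. In both genes the i.c.v. female was the lowest and the i.c.v. male lay between the i.v. libraries. The 16 microglial transcription factors and 13 genes of TGF-beta signalling, on which microglia depend, had medians of 0.01 and -0.03.

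Genes that the study uses to tell MLCs from microglia lay higher in GFP- cells after i.c.v. dosing. Of 14 such genes, edgeR called 0 and DESeq2 called 3 (Apoe, Cybb and Ms4a7), and 13 lay higher after i.c.v. dosing without overlap (21.5% of all genes did), with a median log2 fold change of 0.67 in the fit, 0.80 between the females and 0.70 between the males. The list was chosen by the study on these samples and is not independent evidence of a direction. Ms4a7 was at 108 and 169 CPM after i.v. dosing and at 362 and 271 CPM after i.c.v. dosing (log2 fold change 1.19, standard error 0.27, adjusted p = 0.440). Cybb, the catalytic subunit of the phagocyte NADPH oxidase, was at 139 and 161 CPM against 522 and 265 CPM. Apobec1, an RNA-editing enzyme, was at 69.2 and 71.1 CPM against 117 and 97.5 CPM.

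More cells held CAM markers after i.c.v. dosing. At least 3 of the 9 CAM markers were found in 3.93% (95% exact interval 3.22% to 4.73%) and 5.03% (4.41% to 5.70%) of cells of the i.v. female and male, and in 13.3% (12.3% to 14.3%) and 9.18% of cells of the i.c.v. female and male. Intervals cover counting error only. Of the 9 markers as genes, 4 lay higher after i.c.v. dosing without overlap (21.5% of all genes did) and 0 lower (21.3% did). EdgeR called 0 of them and DESeq2 called 1 (Ms4a7). Their median log2 difference was 0.80 between the females but 0.10 between the males. Summed over the 9, the level was 796 and 1075 CPM after i.v. dosing and 1555 and 1227 CPM after i.c.v. dosing. After thinning, Ms4a7 was found in 3.07% and 4.76% of cells against 11.8% and 7.63%. Cd74, the invariant chain of MHC class II, was found in 6.24% and 13.4% of cells against 27.7% and 21.8%. The share with P2ry12 was 42.7% and 54.4% against 37.6% and 51.5%, so that the routes overlapped. In the naive microglia library, of which 482 cells reached 500 UMIs, the shares were 40.7% for Apoe, 3.11% for Ms4a7 and 17.4% for Cd74. These were 37.8% of its cells, whereas all cells of the GFP- libraries reached 500 UMIs. The naive mouse also differed in age, conditioning and dosing, so that it is not a matched baseline. Free RNA can also give a cell a UMI, and no cell type that lacks these genes was at hand to measure that background, so that a share is not the share of cells expressing the gene. In summed counts, more cells of a type and more RNA per cell cannot be told apart.

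**Figure D2:**
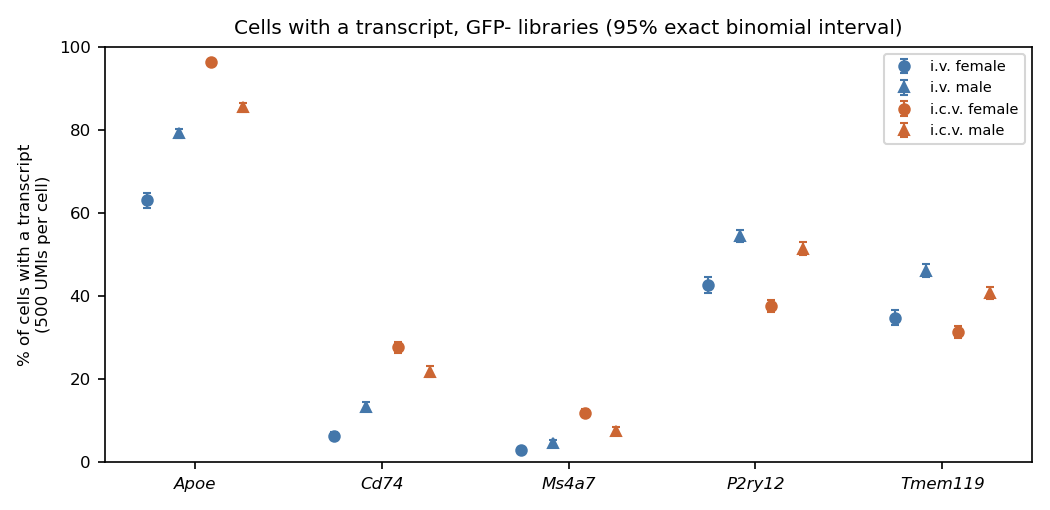
Share of GFP- cells with a transcript of each gene at 500 UMIs per cell (vertical axis, percent), 1 point for each library with its 95% exact binomial interval. Both i.c.v. libraries (orange) lie above both i.v. libraries (blue) for Apoe, Cd74 and Ms4a7, and the routes overlap for P2ry12 and Tmem119.

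The comparison was repeated in cells that passed for microglia alone, with under 3 markers of every other type, which can still hold fewer CAM markers. In these cells (94.8%, 94.1%, 85.1% and 89.2% of cells), Apoe was at 5601 and 4996 CPM after i.v. dosing and at 18610 and 8828 CPM after i.c.v. dosing, with a log2 fold change of 1.37 (adjusted p = 0.9997). Ms4a7 was at 28.8 and 44.9 CPM against 162 and 76.4 CPM in those cells. Of the 14 MLC genes, 11 lay higher without overlap (16.6% of all genes did), with a median of 0.79. The number of genes at an unadjusted p under 0.05 was 311 in those cells, and 0 were called.

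Genes of MHC class II, which present antigen to T cells, lay higher after i.c.v. dosing without passing the test. Of 11 genes, 8 lay higher without overlap (21.5% of all genes did) and 0 were called by edgeR or DESeq2, with a median log2 fold change of 0.49. Cd74 was at 1733 and 1271 CPM after i.v. dosing and at 2481 and 2307 CPM after i.c.v. dosing, and H2-Aa was at 838 and 603 CPM against 1123 and 1127 CPM. H2-DMa and H2-DMb1, which load peptide onto class II molecules, were at 273 and 226 CPM against 322 and 290 CPM and at 134 and 109 CPM against 142 and 150 CPM. Among cells that passed for microglia alone, 3 of 10 lay higher without overlap (16.6% of all genes did).

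Classical promoters of MHC class II genes carry a Y box, an inverted CCAAT motif bound by NF-Y, near the start, and windows around ATTGG, its core letters, are shown for 4 genes because 2 of their genes differed in the comparison with GFP+ cells given further on. They come from RefSeq on GRCm38.p6, cover 30 bases on each side of the motif, and have ATTGG in capitals. The motif began 61, 48 and 59 bases before the start in H2-DMb1, H2-Aa and H2-Eb1 and 198 bases before it in H2-DMa, so that the match in H2-DMa lies apart from the others. H2-Eb1 held another match on the opposite strand, 35 bases before the start. It reads ccaat in the window shown and is not in capitals. H2-DMa is at chr17:34125290-34125354 on the plus strand, H2-DMb1 at chr17:34153100-34153164 on the plus strand, H2-Aa at chr17:34287837-34287901 on the minus strand and H2-Eb1 at chr17:34305778-34305842 on the plus strand.
H2-DMa: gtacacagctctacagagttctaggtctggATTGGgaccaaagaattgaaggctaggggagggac
H2-DMb1: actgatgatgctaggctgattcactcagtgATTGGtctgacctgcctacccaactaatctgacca
H2-Aa: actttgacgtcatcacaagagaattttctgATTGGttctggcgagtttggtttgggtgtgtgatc
H2-Eb1: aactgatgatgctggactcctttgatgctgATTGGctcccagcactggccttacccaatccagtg

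The motif was 1 of 5 that were searched on both strands, in windows from 250 bases before to 50 bases after the start, after the expression values had been seen. ATTGG was in 8 of the 8 MHC class II genes with a promoter sequence, but it is short and was in 41.1% of all genes. The longer CTGATTGG, which contains ATTGG, was in 4 of the 8 and in 4.70% of all genes. GAANNTTC, the core of the heat shock element, was in 8 of 10 heat shock genes and in 9.04% of all genes, and the extended heat shock element, which contains it, was in 3 of 10 and in 0.662% of all genes. The core of the interferon-stimulated response element was in 13 of 20 interferon-stimulated genes and in 3.99% of all genes. A match is a description and not a binding site.

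Heat shock and cytokine genes lay higher after i.c.v. dosing, with larger differences between the females than between the males. Of 13 heat shock genes, which encode protein chaperones, 12 lay higher without overlap (21.5% of all genes did) and 0 were called by edgeR or DESeq2, with a median log2 fold change of 0.77 in the fit, 1.38 between the females and 0.19 between the males. Summed over the 13, the level was 3627 and 6738 CPM after i.v. dosing and 8707 and 7852 CPM after i.c.v. dosing, so that the i.v. female lay farthest from the others. Hspe1, a mitochondrial chaperonin, was at 143 and 180 CPM after i.v. dosing and at 269 and 205 CPM after i.c.v. dosing. Of 22 inflammatory cytokine and NF-kB genes, 12 lay higher without overlap (21.5% of all genes did), edgeR called 0 and DESeq2 called 1 (Cxcl2), with medians of 0.79 between the females and 0.19 between the males. Ccl3, a chemokine, was at 673 and 859 CPM against 1135 and 1072 CPM, and Cxcl2, which attracts neutrophils, was at 297 and 341 CPM against 1101 and 504 CPM. Other stress lists had medians near that of all genes. Of 19 immediate-early genes, 7 lay higher and 1 lower without overlap (21.5% and 21.3% of all genes did), with a median of -0.0026. For 11 p53 target genes the counts were 3 and 2 and the median was 0.05.

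Ribosomal protein genes lay higher after i.c.v. dosing, and none passed the test in edgeR or DESeq2. Of 81 tested, 68 lay higher after i.c.v. dosing without overlap (21.5% of all genes did) and 0 lay lower (21.3% did), with a median log2 fold change of 0.36, and 0.39 and 0.34 between females and males. Rps28 was at 383 and 347 CPM after i.v. dosing and at 638 and 494 CPM after i.c.v. dosing. These genes took 8.83% and 7.87% of UMIs after i.v. dosing and 10.8% and 9.30% after i.c.v. dosing, and their median was 0.25 with no scaling factor. Of 14 cell division genes, 12 lay higher without overlap, beside 21.5% of all genes. Their median log2 fold change was 0.97, but 0.35 between the males, 0.53 in cells that passed for microglia alone and 0.44 without cells of other types. Stmn1, a microtubule regulator, was at 21.7 and 23.3 CPM against 35.2 and 45.7 CPM.

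EdgeR called no interferon-stimulated, disease-associated microglia or lipid handling gene between the routes, and DESeq2 called 1 (Bst2), 2 (Apoe and Axl) and 4 (Apoe, Apoc4, Cd36 and Plin2). Of 28 interferon-stimulated genes, 7 lay higher and 4 lower after i.c.v. dosing without overlap, near the 21.5% and 21.3% of all genes, with a median log2 fold change of 0.12. Of 21 disease-associated microglia genes, which mark microglia at plaques, 9 lay higher and 0 lower (21.5% and 21.3% of all genes did), and Axl, a receptor for dying cells, was at 50.4 and 57.7 CPM against 162 and 82.8 CPM. Of 20 lipid handling genes, 8 lay higher and 2 lower, beside the same shares of all genes, and Plin2, a coat protein of lipid droplets, was at 39.0 and 50.2 CPM against 98.5 and 81.7 CPM.

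**Figure D3:**
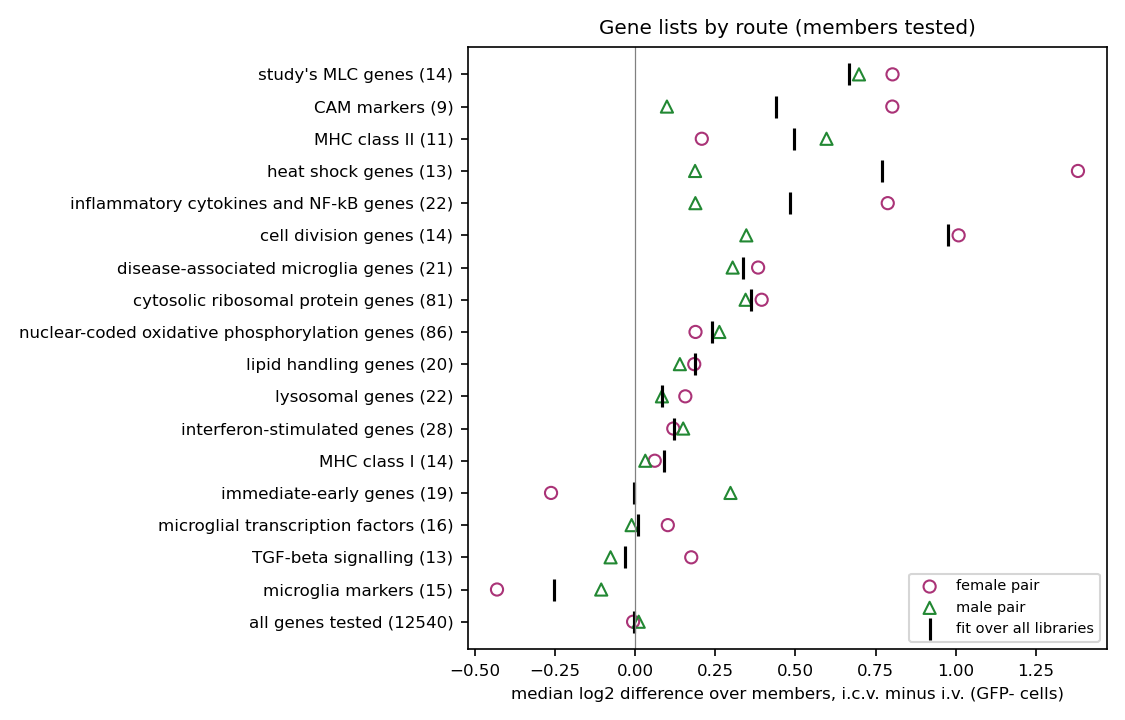
Median log2 difference over the members of each list in GFP- cells, i.c.v. minus i.v., between the females (circles), between the males (triangles) and in the fit over all libraries (bars), with the number of members tested in brackets. The 14 MLC genes and 81 ribosomal protein genes have like medians in both sexes, whereas heat shock genes are at 1.38 between the females and 0.19 between the males.

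Neutrophil transcripts lay higher in sum in GFP- cells after i.c.v. dosing, and the sum of monocyte markers overlapped between the routes. Summed over 8 monocyte markers, the level was 62.4 and 25.8 CPM after i.v. dosing and 153 and 51.0 CPM after i.c.v. dosing. Of these 8, 3 lay higher after i.c.v. dosing without overlap (21.5% of all genes did) and 0 lower (21.3% did). Their median log2 fold change was 0.76, edgeR called 0 and DESeq2 called 3 (Chil3, Ly6c2 and Plac8). Summed over 10 neutrophil markers, the level was 459 and 297 CPM after i.v. dosing and 6089 and 1154 CPM after i.c.v. dosing, and 0.0748% and 0.0878% of cells against 0.551% and 0.367% held at least 3 of them. Of these 10 markers, 9 lay higher and 1 lower after i.c.v. dosing without overlap (21.5% and 21.3% of all genes did). EdgeR called 0 of them and DESeq2 called 4 (Camp, Lcn2, Mmp8 and Ngp). Camp, a granule peptide, was at 0.357 and 0.794 CPM against 485 and 115 CPM, and Ngp, a granule protein, was at 0.178 and 0.132 CPM against 556 and 120 CPM. Without cells passing for types other than microglia or CAMs, 0 genes were called between the routes and the MLC genes had a median of 0.85. The part of neutrophils or oligodendrocytes in the other genes' differences was not tested beyond this.

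The route difference in GFP- cells was set against that in GFP+ cells of the same mice. In 199 of 12540 genes (1.59%) the 2 differed at an adjusted p under 0.05 in edgeR's quasi-likelihood test of the interaction, and in 185 of them (1.48% of all genes) the difference between i.c.v. and i.v. was more positive in GFP- cells. With the mouse as a block, since both sorts of a mouse come from 1 animal, 880 genes (7.02%) passed. Without cells passing for other types, 43 genes (0.356%) passed. With 1 library left out, the count was 91 without GFP- cells of the i.v. female, 32 without those of the i.v. male, 26 without those of the i.c.v. female and 30 without the GFP+ cells of that mouse.

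The 5 largest positive values were those of Ltf, Plac8, Ly6c2, S100a4 and Gda. Ltf, Plac8, Ly6c2 and Gda lay in opposite orders by route in the 2 sorts. For Gda the order in GFP- cells was narrow, at 2.32 and 1.06 against 8.44 and 2.38 CPM. By contrast, S100a4 overlapped between the routes in GFP- cells (26.2 and 7.28 against 14.7 and 13.6 CPM). Ly6c2, a surface protein of inflammatory monocytes, was at 1.07 and 0.132 CPM in GFP- cells after i.v. dosing and at 14.1 and 4.64 CPM after i.c.v. dosing. In GFP+ cells it was at 25.7 and 19.5 CPM after i.v. dosing and at 0 and 0.0997 CPM after i.c.v. dosing (interaction 12.47 on the log2 scale, standard error 1.38, adjusted p = 0.0174). Ccr2, the chemokine receptor of inflammatory monocytes, was at 23.2 and 14.2 CPM against 24.0 and 13.5 CPM in GFP- cells, and at 179 and 134 CPM against 1.29 and 2.39 CPM in GFP+ cells (interaction 6.39, standard error 0.59, adjusted p = 0.0132). For Ccr2 the route separated the GFP+ libraries, and the GFP- libraries overlapped.

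MHC class II genes H2-DMb1 and H2-DMa also passed. H2-DMb1 was at 461 and 473 CPM in GFP+ cells after i.v. dosing and at 102 and 139 CPM after i.c.v. dosing, with an interaction of 2.22 (standard error 0.25, adjusted p = 0.00955). H2-DMa had an interaction of 1.07 (standard error 0.21, adjusted p = 0.0411). Of 81 ribosomal protein genes, 7 passed (1.59% of all genes did), all with a more positive difference in GFP- cells (1.48% of all genes). Among the 14 genes (0.112%) with the opposite sign, Adamts1, a secreted protease, was at 376 and 191 CPM against 228 and 193 CPM in GFP- cells and at 19.5 and 19.7 CPM against 105 and 75.5 CPM in GFP+ cells (interaction -2.63, adjusted p = 0.0440).

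**Figure D4:**
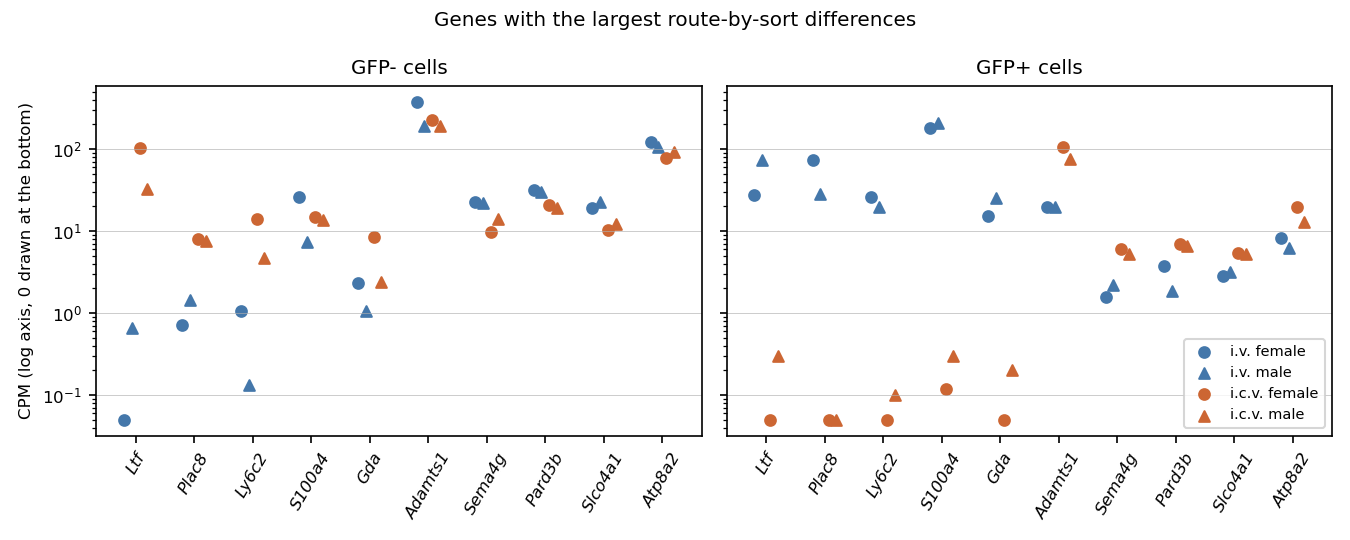
CPM on a log axis for the 5 genes with the largest route-by-sort difference on each side, in GFP- cells (left) and GFP+ cells (right), 1 point for each library and 0 drawn at the bottom. Ly6c2 is higher after i.c.v. dosing in GFP- cells and higher after i.v. dosing in GFP+ cells.

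Transcripts of the recipient's sex were compared between cells with and without CAM markers. Xist, the noncoding RNA of the inactive X chromosome, is made in female cells, and Ddx3y, Eif2s3y, Kdm5d and Uty are Y-linked. In the i.c.v. male, 10.1% (7.27% to 13.6%, exact) held Xist among 375 cells with at least 3 CAM markers and 1.21% (0.886% to 1.62%) among the other 3712 cells, all thinned to 500 UMIs from medians of 4001 and 904 UMIs. In the i.v. male the shares were 1.31% (0.271% to 3.78%) and 0.324% (0.177% to 0.542%). The shares in the i.c.v. male thus differed between cell classes beyond counting error. The cells with CAM markers were deeper before thinning in every library, and the marker rule was applied at the cells' own depth.

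Few of the cells with Xist in the i.c.v. male held a Y-linked transcript. At their own depth, 17.2% (8.90% to 28.7%) of 64 CAM-marker cells with Xist held one, against 61.1% (55.4% to 66.5%) of 311 CAM-marker cells without Xist, at median depths of 6408 and 3343 UMIs. Over all cells of that mouse, 15.7% of 127 with Xist and 35.2% of 3960 without held one. For the i.v. male the shares were 14.3% (3.05% to 36.3%) of 21 cells with Xist and 33.2% of 4534 without. That interval covers 33.2%, so that these few cells do not show a difference. Only 5 CAM-marker cells of the i.v. male held Xist. In the i.v. female at 500 UMIs, Xist was found in 48.6% of 105 CAM-marker cells and in 79.1% of the others, and in the i.c.v. female in 52.1% of 578 and in 56.8%. Y-linked transcripts were found in 1.90% and 0.865% of the CAM-marker cells in the females (i.v., then i.c.v.) against 0.389% and 0.688% of the others at 500 UMIs, and in 11.4% and 3.63% against 1.25% and 0.980% at own depth, where CAM-marker cells were deeper. Among CAM-marker cells without Xist, 32.3% of 31 and 17.3% of 110 held one. The study gives all donor animals of this experiment as male and its methods name male donors for the transduced cells, without a separate statement for the bone marrow given without the vector. The origin of these cells was not tested.

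**Figure D5:**
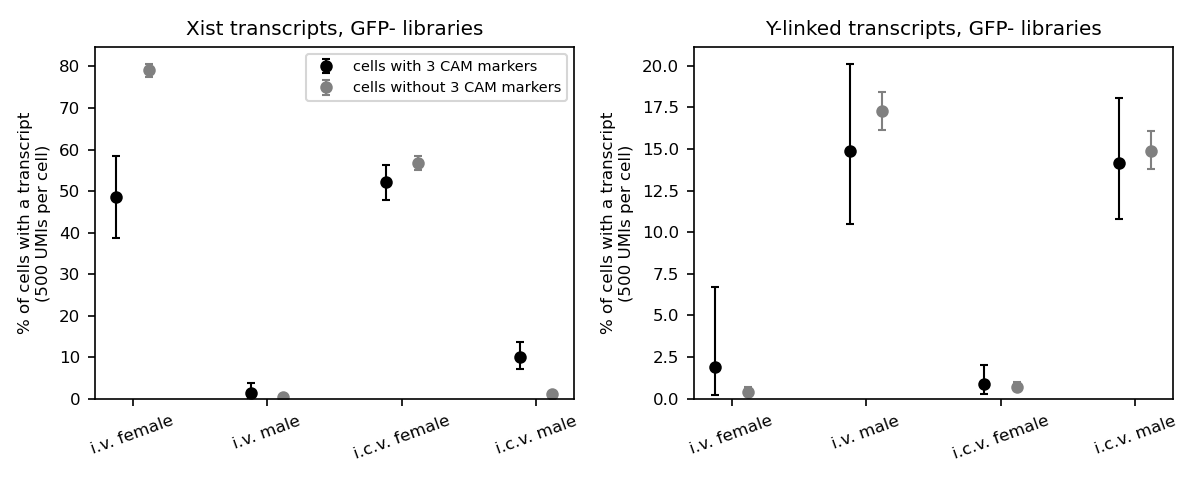
Share of GFP- cells with Xist (left) and with a Y-linked transcript (right) at 500 UMIs per cell, for cells with at least 3 CAM markers (black) and the others (grey), with 95% exact binomial intervals. In the i.c.v. male, 10.1% of CAM-marker cells and 1.21% of the others held Xist.

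The 4 GFP- libraries did not fall apart by route as a whole. The median absolute log2 difference over all genes was 0.23 between the i.v. libraries and 0.16 between the i.c.v. libraries, and 0.17 to 0.27 between libraries of different routes. The i.v. male and the i.c.v. male differed by 0.17, with 25 genes over 2-fold apart among those with at least 20 CPM, and the females differed by 0.27, with 271 such genes.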

How the data were processed

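Single-cell libraries of GFP- cells from 2 i.v.-dosed and 2 i.c.v.-dosed mice were analysed. The 4 GFP+ libraries of the same mice served for the interaction and for the filter, scaling and spread in the shared fit. The authors made the deposited counts, whole UMIs per gene and barcode without normalization, with Cell Ranger 3.1.0 and mm10, per the file headers and the submitters' processing notes. Members and gene lists were chosen with earlier results of these data known. Barcodes under 200 genes or over 10% mitochondrial UMIs were dropped, and counts were summed per library. No search for doublets was run, so that a barcode may hold more than 1 cell. Genes passing filterByExpr were compared by edgeR 4.0.16 (R 4.3.3) quasi-likelihood tests, two-sided, with TMM scaling, over the 8 treated libraries in 4 groups, and called at a Benjamini-Hochberg adjusted p under 0.05. CPM are scaled by TMM. The interaction tested the route difference in GFP- against that in GFP+ cells. Since no gene was called by route, the genes named were the 15 per direction with the smallest p, at least 20 CPM in the higher route and no overlap, and for the interaction the 5 called genes per direction with the largest effect; further genes are list members with the smallest p, or were chosen after their values were seen (Camp, Ngp, Ccr2, Cd74, H2-Aa, H2-DMa, H2-DMb1, P2ry12, Tmem119). Shares were computed after 500 UMIs had been drawn per cell, with Clopper-Pearson intervals. Gene positions came from GENCODE for GRCm38, and promoters from RefSeq. GFP- and GFP+ libraries of 1 mouse come from the same animal; their deviations from the group means correlated at 0.38 in the i.v. and 0.02 in the i.c.v. mice. Alternatives were another filter, tool, scaling, covariate, cell set or library left out (DESeq2 1.42.0, limma 3.58.1). The tests were also tested on simulated data.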

Additional observations from a re-analysis of the deposited data

Results flagged for a closer look

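The route difference depended on the sort in 199 genes, by a test of the interaction itself (edgeR's quasi-likelihood test). The values given are the i.c.v. minus i.v. log2 difference in GFP- cells less that in GFP+ cells. Among genes with positive values, Ltf (15.60), Plac8 (14.62), Ly6c2 (12.47), S100a4 (9.52) and Gda (9.09) were largest by the rule, and for Ltf, Plac8, Ly6c2 and Gda at least 1 library was at 0 counts, so that the fitted value depends on the prior count and is no bound. Among genes with negative values, Adamts1 (-2.63), Sema4g (-2.49), Pard3b (-1.80), Slco4a1 (-1.72) and Atp8a2 (-1.58) were largest. Ltf encodes lactoferrin, a protein of neutrophil granules.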

How the results depend on the processing

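With 2 mice per route, of different sex, and a median standard error of 0.21, modest differences cannot be shown, and route, mouse and batch cannot be told apart. The count of 0 genes called between the routes became 1 with every cell thinned to 500 UMIs, 28 without the filter on low counts, 66 in DESeq2, 5 in the GFP- libraries alone and 89 in those with recipient sex as a covariate, and 0 to 36 with each library left out, the highest with GFP- cells of the i.c.v. male left out. It stayed 0 with all barcodes, a stricter barcode filter, RLE or upper-quartile scaling, no scaling factor, sex as a covariate, microglia-only cells, no cells of other types, and the mouse as a replicate block. The interaction count of 199 became 91 under the stricter filter, 62 in thinned cells, 347 in microglia-only cells, 43 without cells of other types, 628 without the filter on low counts, 479 with sex as a covariate, 569 in DESeq2 and 880 with the mouse as a replicate block, and 26 to 296 with each library left out. The cell set without other types and the fit without a scaling factor were chosen after seeing the data. Among the 15 genes named on each side by route, Mbp changed sign in microglia-only cells (-0.15) and without cells of other types (-0.10). Mbp is a marker by which both of these sets left out cells, so that the rule alone could lower its value. The difference in the share of cells, i.c.v. minus i.v., was 5.82 points for Ms4a7 at 500 UMIs, 10.6 at 1000 UMIs and 11.8 at own depth, and for Cd74 it was 14.9 at 500 UMIs and 22.2 at own depth. At 1000 UMIs the mean shares for Cd74 were 12.5% after i.v. and 25.3% after i.c.v. dosing, less far apart than at 500 UMIs. The cause of these changes was not tested.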
